A study of Mus musculus with 26 samples.

Results

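In E-A14 mammary tumours, 139 genes differed between EpCAM-negative and EpCAM-positive tumour cells in one direction when the mice had been given control antibodies and in the other direction when CD4 and CD8 T cells had been depleted. The genes were chosen by the measured values themselves. CPM, the count over the library's total scaled to the same sum, was taken for each library, and each group's mean was formed with 0.5 CPM added. A gene belonged to the set when its mean reached 5 CPM in at least 1 of the 4 tumour groups, and when its ratio of EpCAM-negative to EpCAM-positive cells was at least 1.5 in one treatment and at most 0.67 in the other. Of 47730 features in the table, 10692 reached 5 CPM. In 79 of them, or 0.739%, the ratio was high in control and low in depleted tumours, and these are called control-up. In 60, or 0.561%, it was the other way round, and these are called depleted-up. Since these ratios picked the genes, they are given as a description and carry no test.

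The study compared epithelial with mesenchymal tumour cells in mice with and without T cells. E-A14, a Her2-expressing line of mouse mammary tumour cells, was implanted in a mammary fat pad of FVB/N mice aged 6 to 8 weeks. Control mice received 100 µg of rat IgG2a and 100 µg of rat IgG2b, and depleted mice 100 µg of anti-CD4 and 100 µg of anti-CD8a, 2 times a week from 2 weeks before implantation until collection. Control tumours were collected on day 47 and depleted tumours on day 20, so treatment and time of growth cannot be told apart. From 6 tumours per treatment, live Her2-positive cells without surface CD90, CD105 or CD45 were separated by EpCAM into a positive and a negative fraction, which gave 6 libraries for each of the 4 groups. A further 2 libraries came from the unsorted line in culture. All groups share the E-A14 line, so the results describe 1 line, and both fractions came from the same tumours.

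EpCAM is a cell-surface adhesion molecule of epithelial cells. Carcinoma cells that undergo epithelial-mesenchymal transition lose it together with other junction proteins and gain genes of motility and matrix, so an EpCAM-negative fraction is commonly used to collect the mesenchymal end of a tumour. Many features of such a transition, among them division, metabolism and secreted proteins, are known to depend on the surroundings of the cell.

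The sort was visible in the RNA. Epcam itself had 1189.7 ± 258 CPM (SD, n = 6) in EpCAM-positive and 1.49 ± 0.520 in EpCAM-negative control cells, against 2469 ± 247 and 146 ± 86.7 in depleted tumours. The EpCAM-negative fraction of depleted tumours thus held 40.7 to 295 CPM of Epcam where that of control tumours held at most 2.24, and the part of this in the opposite ratios was not tested. Ptprc, which encodes CD45, averaged 0.769 CPM in EpCAM-positive and 0.0508 in EpCAM-negative control cells. In those of depleted tumours it averaged 4.51 and 5.03 CPM, with up to 10.1 in a library. Cd8a averaged at most 0.0220 CPM in any group. Macrophage markers, of which 22 are in the table, summed to 136 to 322 CPM in EpCAM-positive and 63.1 to 74.1 in EpCAM-negative control cells, and to 196 to 310 and 189.5 to 461 in depleted tumours. The 11 of them that reached 5 CPM had a median log2 ratio of -1.57 in control and 0.31 in depleted tumours. Those are the signs of depleted-up genes, though 0 of the 11 met the rule. The sum did not share the second sign, with a median of 293 CPM in EpCAM-positive and 217 in EpCAM-negative depleted cells. Outside these markers, Cybb, which had no count in culture, and H2-DMa, a gene of MHC class II presentation, were depleted-up. Neutrophil markers summed to 19.7 to 127 and 3.11 to 5.09 CPM in the control fractions and to 189 to 369 and 25.8 to 66.6 in the depleted fractions, lower in EpCAM-negative cells of both treatments. Their part in the ratios was not tested. Library totals ran from 26895429 to 38740143 counts in control and from 17559520 to 25601999 in depleted tumours, with no overlap, and were 27253363 and 35059744 in culture.

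**Figure D1:**
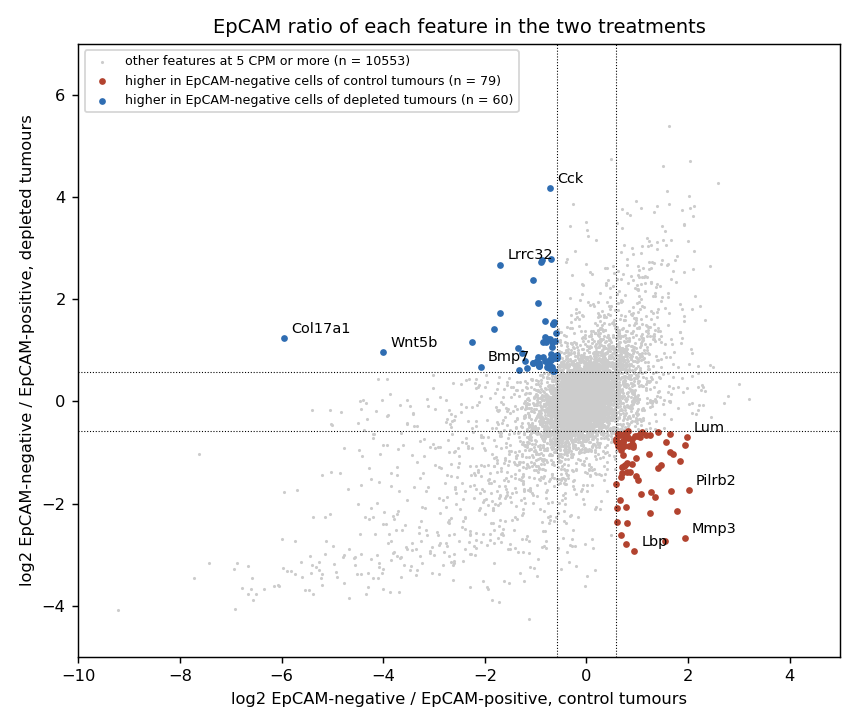
Each point is a feature that reached 5 CPM in a tumour group, with the log2 ratio of EpCAM-negative to EpCAM-positive cells in control tumours on the x axis and in depleted tumours on the y axis, and dotted lines at the ratios of 1.5 and 0.67. The 79 red points lie to the lower right and the 60 blue points to the upper left. Col17a1 and Wnt5b lie far to the left of the other blue points.

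The opposite ratios took 2 main shapes over the 4 groups in each direction. The rule itself limits these shapes. A control-up gene can be highest only in EpCAM-negative control or EpCAM-positive depleted cells, and lowest only in the other 2 groups. For a depleted-up gene the reverse holds. Among the 79 control-up genes, 42 had their highest mean in EpCAM-negative control cells and their lowest in EpCAM-negative depleted cells. A further 33 had the highest mean in EpCAM-positive depleted cells and the lowest in EpCAM-positive control cells. Among the 60 depleted-up genes, 27 were highest in EpCAM-positive control and lowest in EpCAM-positive depleted cells, and 26 were highest in EpCAM-negative depleted and lowest in EpCAM-negative control cells. Ratios were mostly moderate. The median control-up gene had a ratio of 1.77 in control and 0.541 in depleted tumours, and the median depleted-up gene 0.575 and 1.84. With thresholds of 2 and 0.5, 15 control-up and 7 depleted-up genes were left.

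Single libraries show how far each swing stood clear of the spread. In 24 of the 79 control-up genes every EpCAM-negative control library lay above every EpCAM-positive one, against 4.86% of all 10692 features, and in 51 every EpCAM-negative depleted library lay below every EpCAM-positive one, against 10.9%. In 20 of them the libraries were apart in both treatments, against 0.327% of features. Of the 60 depleted-up genes, 20 were apart in control tumours (14.3% of features, EpCAM-negative below), 35 in depleted tumours (11.2%, EpCAM-negative above) and 12 in both (0.44%). The selection used these same ratios, so nothing is read from the distance to those shares. The genes were variable: the median biological coefficient of variation was 0.288 among control-up and 0.298 among depleted-up genes, and 0.151 among all features at 5 CPM. When each of the 24 tumour libraries was left out in turn, 47 control-up and 32 depleted-up genes met the rule every time. Leaving out EpCAM-positive control library 3 cost the most, 17 genes of both directions. EpCAM-negative control library 1 was the lowest of its group in 32.4% of the 139 genes and in 20.2% of all features, and leaving it out cost 15 genes. EpCAM-positive control library 4 was the lowest of its group in 33.8% and 23%, and leaving it out cost 9 genes. For EpCAM-positive control library 6 these shares were 24.5% and 15.8%, and the cost was 6 genes.

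Among the gene lists examined, that of cell division held the largest number of control-up genes, 11 of 37 or 29.7%. The share was 30% among 10 measured fibroblast markers and 0.739% over all features at 5 CPM. Of 37 measured genes of a mitotic list, which holds regulators and motors of the G2 and M phases, 11 were control-up: Kif20a, Kif23, Kif2c, Cenpe, Bub1, Ccnb2, Cdc20, Hmmr, Dlgap5, Ckap2l and Knl1. None was depleted-up. Their products drive and police chromosome segregation: Ccnb2 encodes a B-type cyclin of the mitotic kinase, Kif23 and Kif20a kinesins of the cleaving midzone, Cenpe a kinesin of the kinetochore, Bub1 and Knl1 parts of the spindle checkpoint, and Cdc20 the activator of the ubiquitin ligase that ends metaphase. Of the whole list, 30 of 37 had a ratio above 1 in control and below 1 in depleted tumours, as had 10.9% of all features at 5 CPM. The list's median log2 ratio was 0.75 in control and -0.36 in depleted tumours, beside -0.11 and 0.050 over all features.

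Ccnb2 shows the form they shared. It had 16.3 to 44.7 CPM (median 28.4) among EpCAM-positive and 39.6 to 73.3 CPM (median 55.8) among EpCAM-negative control libraries. Depleted tumours gave 82.8 to 119 CPM (median 93.5) among EpCAM-positive and 45.1 to 59.4 CPM (median 55.5) among EpCAM-negative depleted libraries. The depleted groups did not overlap, while in control tumours the highest EpCAM-positive library reached above the lowest EpCAM-negative one. Its ratio was 1.87 in control and 0.552 in depleted tumours. Kif23 had 16.6 to 43.9 CPM (median 28.6) among EpCAM-positive and 33.3 to 63.5 CPM (median 50.2) among EpCAM-negative control libraries. Depleted tumours gave 74.3 to 114 CPM (median 85.7) among EpCAM-positive and 40.3 to 67.2 CPM (median 45.8) among EpCAM-negative depleted libraries, again without overlap there. Kif20a, with 23.5 to 60.9 CPM (median 37.8) among EpCAM-positive and 69.1 to 115 CPM (median 93.7) among EpCAM-negative control libraries, was apart in control tumours as well, and its ratio was 2.37 in control and 0.635 in depleted tumours. All 11 had their lowest mean in EpCAM-positive control and their highest in EpCAM-positive depleted cells, with both EpCAM-negative groups between. This is a shape that the rule allows, and the counts over the whole list include these 11. Over the whole list, 35 of 37 were lowest in EpCAM-positive control cells and 26 of 37 highest in EpCAM-positive depleted cells, against 15.7% and 24.1% of features at 5 CPM, as the plot of mitotic genes by group shows.

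**Figure D2:**
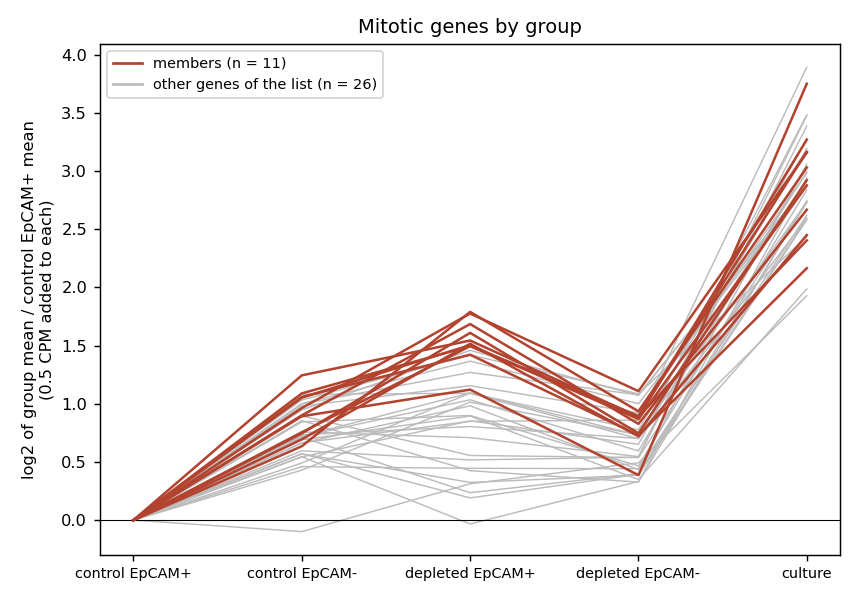
Each line is 1 of 37 mitotic genes, drawn as the log2 of its group mean over its mean in EpCAM-positive control cells (0.5 CPM added to each). Lines only join the values of a gene across the 5 groups on the x axis. The 11 members, in red, peak among the tumour groups in EpCAM-positive depleted cells, and all 37 genes are highest in culture.

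A pair of comparisons did not enter the ratios that chose the genes. They were tested in edgeR's quasi-likelihood fit over all 16637 tested features, p-values being adjusted by Benjamini and Hochberg's method and called at 0.05. The first sets control against depleted tumours with both EpCAM fractions averaged, as a log2 fold change of control minus depleted. The second sets the mean of the 4 tumour groups against culture. Errors beside these log2 fold changes are standard errors. Each treatment has 12 libraries from 6 tumours in the first, and the fit treats them as separate. The second rests on 2 culture libraries, and the labels do not say whether they were grown separately, so that their spread may be technical. The floor of 5 CPM was set on the tumour groups and not on culture, so it favours genes high in some tumour group. Features at 5 CPM met the same floor and are therefore the nearer background for both comparisons. Of the 37 mitotic genes, 21 were lower in control than in depleted tumours and 0 were higher in edgeR's test, with a median log2 fold change of -0.43, where 30.2% of features at 5 CPM were called lower and 33.4% higher. Of the 11 members 10 were lower, and Ckap2l did not pass at -0.22 ± 0.14 (adjusted p = 0.187). Kif23 changed by -0.72 ± 0.13 (adjusted p = 3.98e-05) and Ccnb2 by -0.72 ± 0.13 (adjusted p = 4.65e-05). All 37 were lower in tumours than in culture, with a median of -2.06, as were 29.8% of features at 5 CPM. Among the members Ckap2l differed most, by -2.99 ± 0.18 (adjusted p = 1.15e-12), with 229 and 280.4 CPM in the culture libraries. The summed level of the 37 genes was 492 to 1371 CPM in EpCAM-positive and 1188 to 2457 in EpCAM-negative control cells, 1915 to 2435 and 1389 to 1866 in those of depleted tumours, and 7446 to 8080 in culture. The 492 CPM was that of EpCAM-positive control library 4, and library 5 of that group came next with 685.

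Outside the list, a further 11 control-up genes that act in the cell cycle were picked after their values were seen: Ncapg, Cit, Ckap2, Pimreg, Troap, Cdc25c, Cdkn3, Fanci, Cip2a, Kif15 and Nek2. Their ratios were 1.54 to 2.26 in control and 0.435 to 0.6699 in depleted tumours. All 11 were lower in tumours than in culture (29.8% of features at 5 CPM), and 4 were lower in control than in depleted tumours, a share near the 30.2% of those features. Of 33 measured genes of DNA replication and the G1/S transition, 0 met the rule in either direction, which is near the background of 0.739% and 0.561%. Their median log2 ratios of 0.26 in control and -0.27 in depleted tumours had the signs of the mitotic list and were nearer to 0.

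The promoters of 3 of the mitotic members are shown because they share a short element. RefSeq promoters (build GRCm38.p6, 250 bases before to 50 after a start) were found for 97 of the 139 genes by symbol. Capitals mark TTTGAA on either strand, the core of the cell cycle homology region (CHR), which is known from promoters of late cell-cycle genes. Coordinates are those of the RefSeq table: Ccnb2 at chr9:70421505-70421804, minus strand, Kif23 at chr9:61946750-61947049, minus strand and Ckap2l at chr2:129297163-129297462, minus strand.
Ccnb2: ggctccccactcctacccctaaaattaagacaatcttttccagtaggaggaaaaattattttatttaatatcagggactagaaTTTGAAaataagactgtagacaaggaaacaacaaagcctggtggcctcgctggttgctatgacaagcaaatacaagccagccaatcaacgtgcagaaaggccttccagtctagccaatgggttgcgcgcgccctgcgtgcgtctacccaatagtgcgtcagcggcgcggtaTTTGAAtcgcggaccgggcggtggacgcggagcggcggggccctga
Kif23: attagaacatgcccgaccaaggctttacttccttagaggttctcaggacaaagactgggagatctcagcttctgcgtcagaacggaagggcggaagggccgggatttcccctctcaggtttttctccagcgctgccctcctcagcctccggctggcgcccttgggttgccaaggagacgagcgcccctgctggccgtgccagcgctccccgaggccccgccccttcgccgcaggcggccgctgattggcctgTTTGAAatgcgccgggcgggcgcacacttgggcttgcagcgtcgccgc
Ckap2l: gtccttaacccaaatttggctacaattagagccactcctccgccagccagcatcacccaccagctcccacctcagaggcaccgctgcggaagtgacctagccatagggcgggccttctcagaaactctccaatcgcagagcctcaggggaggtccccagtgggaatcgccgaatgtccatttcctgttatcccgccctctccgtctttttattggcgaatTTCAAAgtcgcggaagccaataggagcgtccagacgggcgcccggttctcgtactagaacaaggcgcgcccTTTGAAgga

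Ccnb2 and Ckap2l each hold the 6 letters 2 times and Kif23 holds them 1 time. In Ccnb2 one copy lies before and one after the start. TTTGAA, on either strand, was in 7 of the 9 mitotic members with a promoter and in 24 of 31 genes of the whole mitotic list. It was in 17.9% of all 32851 promoters of the table, in 26.6% of 64 control-up promoters and in 20.3% of 59 depleted-up promoters. CCAAT had the same counts, 7 of the 9 mitotic members and 24 of 31 genes of the mitotic list. It was in 43.8% of control-up, 39% of depleted-up and 37.4% of all promoters. The other letters searched on both strands were TGACTCA (AP-1), with 7.81%, 5.08% and 5.2%; TGACGTCA (the cAMP-responsive element), with 4.69%, 1.69% and 1.79%; CACCTG (an E-box bound by ZEB and SNAI factors), with 9.38%, 18.6% and 20.2%; and TATAAA, with 14.1%, 11.9% and 13.6%. TTTCGCGC (E2F) was in 0 of the 123 member promoters and in 0.323% of all, and GGACTTTCC or GGAATTTCC (NF-kB) in 0 control-up, 1 depleted-up and 0.658% of all promoters. A match describes letters, not binding.

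Ranked by the smaller of its 2 changes, the first control-up gene was Mmp3, a secreted protease of the stromelysin kind that cuts matrix and activates other proteases. It had 347 to 898 CPM (median 548) among EpCAM-positive and 689.7 to 3486 CPM (median 2249) among EpCAM-negative control libraries. Depleted tumours gave 969 to 1636 CPM (median 1317) among EpCAM-positive and 174 to 233 CPM (median 200.5) among EpCAM-negative depleted libraries. EpCAM-negative control library 1, at 689.7 CPM, was the only one of its group within the EpCAM-positive range, and the depleted groups were apart. The ratio was 3.82 in control and 0.157 in depleted tumours. Averaged over fractions Mmp3 was higher in control by 1.24 ± 0.17 (adjusted p = 1.03e-06) on the log2 scale, and against culture it did not pass, at 0.77 ± 0.33 (adjusted p = 0.0562). Its promoter (chr9:7445572-7445871, plus strand, RefSeq GRCm38.p6) is shown since it is 1 of 4 control-up genes with the AP-1 letters TGACTCA, here in capitals on the opposite strand.
Mmp3: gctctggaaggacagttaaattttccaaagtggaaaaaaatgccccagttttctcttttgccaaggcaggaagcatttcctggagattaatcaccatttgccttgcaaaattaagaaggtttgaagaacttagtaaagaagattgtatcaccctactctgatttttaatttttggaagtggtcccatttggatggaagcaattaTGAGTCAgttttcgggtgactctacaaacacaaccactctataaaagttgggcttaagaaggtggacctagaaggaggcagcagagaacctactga

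Of 37 measured matrix proteases and inhibitors, 4 were control-up (Mmp3, Adamts1, Plau and Loxl3, the last a collagen cross-linking oxidase) and 0 depleted-up. The shares over all features at 5 CPM were 0.739% and 0.561%. Adamts1, a secreted metalloprotease that cuts proteoglycans, had 666 ± 254 CPM among EpCAM-positive and 1079 ± 299 CPM among EpCAM-negative control cells, and 46.4 ± 12.4 CPM and 18.7 ± 6.94 CPM in those of depleted tumours (SD, n = 6 each). It was higher in control tumours by 4.96 ± 0.20 (adjusted p = 1.14e-16), and did not pass against culture at 0.78 ± 0.32 (adjusted p = 0.0507). Loxl3 had 612 ± 70.7 CPM among EpCAM-positive and 937 ± 164 CPM among EpCAM-negative control cells, and 830.3 ± 81.1 CPM and 531 ± 43.9 CPM in those of depleted tumours and was higher in tumours than in culture by 2.14. Plau, the urokinase that activates plasminogen, was lower in control than in depleted tumours (-0.85) and lower in tumours than in culture (-1.92), both past the threshold. It sat just inside the rule, with a ratio of 1.502 in control and 0.327 in depleted tumours.

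Matrix genes and fibroblast markers had members in both directions, where 0.739% of features at 5 CPM were control-up and 0.561% depleted-up. Of 43 measured matrix and basement membrane genes, Lama4, Emilin1 and Lum were control-up and Dcn was depleted-up. Of 10 measured fibroblast markers, Col3a1, Lum and Ly6c1 were control-up and Dcn again depleted-up, so that Dcn and Lum, which encode related small proteoglycans of collagen fibrils and are neighbours on chromosome 10 in RefSeq gene order, went opposite ways. Dcn had 832 to 2370.2 CPM (median 2033) among EpCAM-positive and 461 to 1768 CPM (median 1204) among EpCAM-negative control libraries. Depleted tumours gave 0 to 6.09 CPM (median 1.501) among EpCAM-positive and 3.72 to 8.84 CPM (median 6.76) among EpCAM-negative depleted libraries. Both treatments overlapped. Dcn differed far more between treatments, by 8.83 ± 0.36 (adjusted p = 1.60e-16), than between fractions, and its ratio was 0.632 in control and 2.88 in depleted tumours. Without EpCAM-negative control library 1 it no longer met the rule. Lum had 2.97 to 8.203 CPM (median 5.98) among EpCAM-positive and 2.73 to 38.8 CPM (median 27.1) among EpCAM-negative control libraries, and 0.0442 to 4.27 CPM (median 1.05) among EpCAM-positive and 0 to 1.42 CPM (median 0.825) among EpCAM-negative depleted libraries. Its depleted groups overlapped, and the low ratio was lost without EpCAM-positive depleted library 2 or EpCAM-negative depleted library 2. Col3a1, a fibrillar collagen, had 46.2 ± 17.99 CPM among EpCAM-positive and 145 ± 71.9 CPM among EpCAM-negative control cells, and 49.9 ± 24.4 CPM and 31.9 ± 12.6 CPM in those of depleted tumours and failed the rule in 5 of the 24 runs without 1 library. The 18 fibroblast markers summed to 1966 to 4646 CPM in EpCAM-positive and 3297 to 6250 in EpCAM-negative control cells, and to 1043 to 1263 and 989 to 1087 in depleted tumours. Of them C7 was at 0 in every tumour library. The 12 pericyte and smooth muscle markers summed to 293 to 653 CPM in EpCAM-positive and 513 to 1494 in EpCAM-negative control cells, and to 60.1 to 120.4 and 17.4 to 45.3 in depleted tumours, so that their sum went as control-up genes did. Only 4 of the 12 reached 5 CPM and 0 were members, and the median log2 ratio of the 4 had the other sign, at -1.67 in control and 1.06 in depleted tumours. Their part in these results was not tested, and fewer cells of a type cannot be told apart from less RNA per cell in sorted bulk samples.

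Cxcl14, Igfbp7 and Itga8 were further control-up genes with wide swings. Cxcl14, a chemokine of epithelia, had 6.85 to 26.1 CPM (median 15.4) among EpCAM-positive and 22.6 to 81.4 CPM (median 56.9) among EpCAM-negative control libraries. Depleted tumours gave 38.3 to 74.1 CPM (median 54.5) among EpCAM-positive and 7.19 to 23.7 CPM (median 15.8) among EpCAM-negative depleted libraries, apart there. The pattern was nearly a mirror image: averaged over fractions, control and depleted tumours differed by 0.11 ± 0.21 (adjusted p = 0.6905). The culture libraries held 1 read of it in all. The mean of the tumour groups was 2188-fold higher, with a 95% counting interval of 393 to 86402, and the difference passed the test (adjusted p = 2.61e-09). Igfbp7, a secreted binder of insulin-like growth factors, had 104 to 133 CPM (median 111) among EpCAM-positive and 161 to 356 CPM (median 230.03) among EpCAM-negative control libraries. Depleted tumours gave 117 to 161 CPM (median 139) among EpCAM-positive and 25.4 to 51.5 CPM (median 39.8) among EpCAM-negative depleted libraries. Both treatments were apart, and Igfbp7 was higher in control by 1.29 ± 0.11 (adjusted p = 3.38e-10) and higher than in culture by 6.71 ± 0.35 (adjusted p = 5.90e-14). Itga8, an integrin alpha chain that binds RGD ligands, had 83.3 ± 13.9 CPM among EpCAM-positive and 198 ± 60.97 CPM among EpCAM-negative control cells, and 88.2 ± 23.5 CPM and 19.1 ± 6.66 CPM in those of depleted tumours. It was apart in both treatments and, unlike Igfbp7, lower in tumours than in culture, by -0.91 ± 0.25 (adjusted p = 0.00364), a call that was lost without culture library 2 (-0.84, adjusted p = 0.0711). Prickle2, of the planar polarity pathway, and Enpp1, a membrane enzyme that hydrolyses nucleotides outside the cell, had ratios of 3.59 in control and 0.446 in depleted tumours and of 1.97 in control and 0.467 in depleted tumours.

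Pilrb1 and Pilrb2, neighbours on chromosome 5 in RefSeq gene order, encode paired activating receptors of near-identical sequence, so that reads may have been shared between them. Pilrb2 had 4.44 to 11.1 CPM (median 7.48) among EpCAM-positive and 26.02 to 36.6 CPM (median 31.9) among EpCAM-negative control libraries. Depleted tumours gave 8.23 to 16.6 CPM (median 11.97) among EpCAM-positive and 1.75 to 5.903 CPM (median 2.75) among EpCAM-negative depleted libraries. The fractions were apart in each treatment and the ratio was 4.04 in control and 0.2999 in depleted tumours. Pilrb1 had 3.46 and 0.226. Ckb, brain-type creatine kinase, had ratios of 2.56 in control and 0.272 in depleted tumours, Ptpn7, a phosphatase of MAP kinases, 2.4003 in control and 0.294 in depleted tumours, and Podn, a small matrix proteoglycan, 2.64 in control and 0.403 in depleted tumours. Podn was close to 0 in EpCAM-negative depleted cells, with 0 to 0.222 CPM (median 0).

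For a subset the treatment difference was much wider than the swing. Lbp, the lipopolysaccharide-binding protein of the acute phase, had 726 to 1358 CPM (median 790.3) among EpCAM-positive and 974 to 2359 CPM (median 1692) among EpCAM-negative control libraries. Depleted tumours gave 18.3 to 42.6 CPM (median 30.2) among EpCAM-positive and 1.15 to 5.47 CPM (median 3.28) among EpCAM-negative depleted libraries. No control library overlapped a depleted one, and the log2 fold change was 7.003 ± 0.22 (adjusted p = 1.85e-18). Cst3, a secreted inhibitor of cysteine proteases, had 3078 ± 1095 CPM among EpCAM-positive and 9099 ± 1796 CPM among EpCAM-negative control cells, and 782 ± 104 CPM and 449 ± 91.8 CPM in those of depleted tumours, and Tnfrsf21, a death receptor of the TNF receptor family, had 373 ± 86.8 CPM among EpCAM-positive and 1038 ± 224 CPM among EpCAM-negative control cells, and 48.98 ± 7.15 CPM and 20.4 ± 7.76 CPM in those of depleted tumours. Both were apart in each treatment, and they were higher in control by 3.27 ± 0.15 (adjusted p = 2.07e-15) and 4.41 ± 0.17 (adjusted p = 4.61e-17). Cst3 adjoins 9230104L09Rik on chromosome 2 in gene order, which was control-up too, with ratios of 2.904 in control and 0.151 in depleted tumours. Emilin1, a matrix glycoprotein of elastic fibres, was higher in control by 5.89 and Fndc1 by 5.38, both past the threshold. At the other end, Cdh17, an intestinal cadherin, had 1.75 ± 2.05 CPM among EpCAM-positive and 3.28 ± 2.18 CPM among EpCAM-negative control cells, and 34.6 ± 8.18 CPM and 14.03 ± 2.11 CPM in those of depleted tumours, and was lower in control at -3.10 ± 0.36 (adjusted p = 5.95e-08). St8sia2, which adds polysialic acid to adhesion molecules, owed its high control ratio to 1 library: EpCAM-negative control library 5 had 24.5 CPM where the other 5 had 0.0547 to 5.14.

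Gusb, which encodes a lysosomal beta-glucuronidase that is often taken as a reference gene, was picked after its values were seen because its swing was small and clear of the spread. It had 59.6 to 78.1 CPM (median 65.1) among EpCAM-positive and 82.2 to 111 CPM (median 106) among EpCAM-negative control libraries. Depleted tumours gave 100.3 to 116 CPM (median 113) among EpCAM-positive and 63.6 to 91.6 CPM (median 67.1) among EpCAM-negative depleted libraries. The groups were apart in both treatments with ratios of 1.55 in control and 0.641 in depleted tumours. Averaged over fractions it differed by 0.0013 ± 0.06 (adjusted p = 0.993), and from culture by 0.11 ± 0.10 (adjusted p = 0.416).

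**Figure D3:**
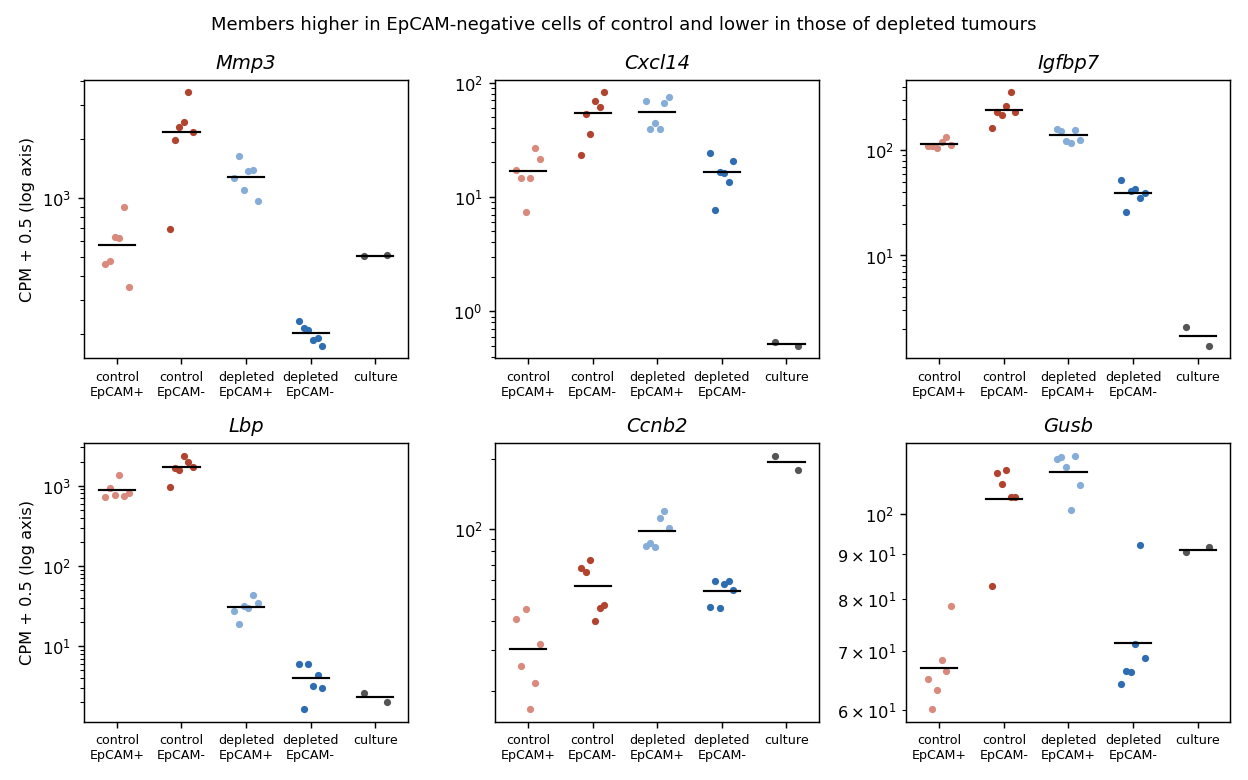
Each point is a library, with CPM + 0.5 on a logarithmic y axis and the 5 groups on the x axis, and bars mark group means of 6 libraries (2 in culture). In each panel EpCAM-negative cells are higher than EpCAM-positive ones in control tumours and lower in depleted tumours, by mean. Lbp differs mainly between treatments, and Ccnb2 is highest in culture.

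Among depleted-up genes, the widest control ratios belonged to Col17a1 and Wnt5b. Col17a1 encodes the transmembrane collagen of hemidesmosomes, which anchors basal epithelial cells. It had 199 to 336 CPM (median 264) among EpCAM-positive and 1.94 to 6.26 CPM (median 3.29) among EpCAM-negative control libraries. Depleted tumours gave 1.79 to 8.13 CPM (median 4.38) among EpCAM-positive and 6.996 to 13.8 CPM (median 10.97) among EpCAM-negative depleted libraries, with overlap. It was therefore high in EpCAM-positive control cells alone among the 5 groups, culture having 3.19 and 2.45 CPM, and its ratio was 0.0161 in control and 2.35 in depleted tumours. Averaged over fractions Col17a1 was higher in control by 2.28 ± 0.19 (adjusted p = 1.17e-10). The 11 markers of normal mammary epithelium were also highest in EpCAM-positive control cells. They summed to 236 to 401 CPM there and to 97.1 to 133 in EpCAM-negative control cells. Depleted tumours gave 47.2 to 66.8 and 39.0 to 68.6 CPM, and culture 16.1 to 23.3. The 5 at 5 CPM had median log2 ratios of -3.42 in control and -0.85 in depleted tumours, and 0 were members. Their part in these ratios was not tested. Wnt5b, a ligand of non-canonical Wnt signalling, had 40.5 to 114 CPM (median 79.6) among EpCAM-positive and 2.07 to 6.47 CPM (median 4.201) among EpCAM-negative control libraries. Depleted tumours gave 0.776 to 1.59 CPM (median 1.001) among EpCAM-positive and 2.02 to 3.15 CPM (median 2.52) among EpCAM-negative depleted libraries, apart at a level near that of culture (2.05 and 1.28 CPM). It was the member among 28 measured Wnt genes, where 0.561% of features at 5 CPM were depleted-up. Wnt5b was higher in control by 3.55 ± 0.19 (adjusted p = 4.39e-14). Trim29, a tripartite-motif protein of basal epithelia, was apart in both treatments, with 53.5 to 90.2 CPM (median 64.3) among EpCAM-positive and 11.4 to 34.96 CPM (median 15.8) among EpCAM-negative control libraries, and 2.79 to 5.85 CPM (median 4.43) among EpCAM-positive and 10.2 to 15.1 CPM (median 12.8) among EpCAM-negative depleted libraries. Pde4b, a cAMP phosphodiesterase, and Dmtn, a binder of the actin cytoskeleton, were apart in both as well, with ratios of 0.21000 in control and 2.24 in depleted tumours and of 0.307 in control and 3.33 in depleted tumours.

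Genes of oxygen shortage and sugar use made up a small group. Of 23 measured hypoxia genes, Bnip3, Slc2a1 and Angptl4 were depleted-up, and of 20 glycolysis genes Hk2 and Slc2a1, with 0 control-up in either list. The rule called 0.561% of features at 5 CPM depleted-up. A ratio below 1 in control and above 1 in depleted tumours was found for 13 of the 23 and 10 of the 20, and for 30.9% of all features at 5 CPM. Slc2a1, the basal glucose transporter, had 246 to 473 CPM (median 429) among EpCAM-positive and 196 to 284 CPM (median 245) among EpCAM-negative control libraries. Depleted tumours gave 284 to 446 CPM (median 396) among EpCAM-positive and 515 to 648 CPM (median 616) among EpCAM-negative depleted libraries, apart there. Hk2, the inducible hexokinase, had 21.01 to 44.7 CPM (median 29.96) among EpCAM-positive and 13.2 to 29.7 CPM (median 17.97) among EpCAM-negative control libraries, and 36.2 to 64.03 CPM (median 47.1) among EpCAM-positive and 48.97 to 119.7 CPM (median 85.4) among EpCAM-negative depleted libraries. The fractions overlapped for Hk2 in both treatments. Angptl4, a secreted inhibitor of lipoprotein lipase, had 8.75 ± 5.48 CPM among EpCAM-positive and 4.295 ± 3.87 CPM among EpCAM-negative control cells, and 2.62 ± 1.03 CPM and 11.5 ± 2.93 CPM in those of depleted tumours. Bnip3, a mitochondrial protein of mitophagy, had a ratio of 0.657 in control and 2.54 in depleted tumours, and failed the rule in 5 of the 24 runs without 1 library. Between treatments Hk2 differed by -1.32 ± 0.16 (adjusted p = 7.08e-08) and Slc2a1 by -0.52 ± 0.09 (adjusted p = 3.57e-05), lower in control, while Bnip3 and Angptl4 did not pass, at -0.17 and 0.27. The hypoxia list summed to 4505 to 6504 CPM in EpCAM-positive and 3969 to 4414 in EpCAM-negative control cells, which did not overlap, and to 3654 to 5026 and 5000.2 to 5774 in depleted tumours. The glycolysis list summed to 5827 to 8358 and 5623 to 7524 CPM in the control fractions, which overlapped. In the depleted fractions it summed to 7293 to 8136 and 9175 to 10895. Median log2 ratios were -0.36 in control and 0.40 in depleted tumours for hypoxia, and -0.053 and 0.44 for glycolysis.

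Of 39 measured TGF-beta and BMP genes, Ltbp1, Inhba and Bmp7 were depleted-up, as were 0.561% of features at 5 CPM. Bmp1, a protease that matures collagens and cuts BMP antagonists, was control-up, as were 0.739% of those features. Ltbp1, which holds latent TGF-beta in the matrix, had 209 to 359.5 CPM (median 302) among EpCAM-positive and 75.01 to 209 CPM (median 134) among EpCAM-negative control libraries. Depleted tumours gave 393 to 505 CPM (median 435) among EpCAM-positive and 559 to 742 CPM (median 709.9) among EpCAM-negative depleted libraries. In control tumours the fractions came close, at 209 CPM, without overlapping, and in depleted tumours they were clearly apart. Ltbp1 was lower in control at -1.40 ± 0.12 (adjusted p = 2.05e-10). Bmp7, a secreted BMP ligand, had 1.21 to 4.38 CPM (median 2.42) among EpCAM-positive and 0.0616 to 0.9098 CPM (median 0.141) among EpCAM-negative control libraries. Depleted tumours gave 100.3 to 200.005 CPM (median 138) among EpCAM-positive and 196 to 289 CPM (median 220.2) among EpCAM-negative depleted libraries. Its log2 fold change of -7.54 ± 0.25 (adjusted p = 2.37e-18) was the lowest of all members, with no control library above 4.38 CPM and no depleted one under 100.3. Inhba, a subunit of activins, was just inside the limit, with ratios of 0.635 in control and 1.504 in depleted tumours. Lrrc32, which displays latent TGF-beta at the cell surface, is outside the list. It had 25.8 to 60.1 CPM (median 46.3) among EpCAM-positive and 6.87 to 19.4 CPM (median 13.1) among EpCAM-negative control libraries, and 0 to 1.15 CPM (median 0.124) among EpCAM-positive and 0 to 8.93 CPM (median 6.54) among EpCAM-negative depleted libraries, where 2 EpCAM-negative libraries were as low as the EpCAM-positive ones.

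Secreted and signalling genes followed. Pthlh, the parathyroid hormone-related peptide, had 25.1 ± 9.86 CPM among EpCAM-positive and 9.56 ± 5.23 CPM among EpCAM-negative control cells, and 46.4 ± 8.24 CPM and 96.7 ± 37.3 CPM in those of depleted tumours, and was lower in control at -2.01 ± 0.22 (adjusted p = 1.72e-08). Sema3c and Sema3d, secreted guidance cues, were 2 of 44 measured axon guidance genes, of which Sema5a went the other way. Among all features at 5 CPM, 0.561% were depleted-up and 0.739% control-up. Boc and Cdon, partner co-receptors of Hedgehog ligands, were also members in opposite directions: Boc was depleted-up with ratios of 0.6504 in control and 1.797 in depleted tumours, and Cdon control-up with 3.25 in control and 0.4897 in depleted tumours. Both were higher in control when fractions were averaged, by 2.94 and 2.54, past the threshold. Arc, an immediate-early gene known for its role in neurons, had 901 to 2779 CPM (median 1883) among EpCAM-positive and 558 to 1733 CPM (median 968) among EpCAM-negative control libraries. Depleted tumours gave 78.2 to 143 CPM (median 121) among EpCAM-positive and 147 to 563 CPM (median 373) among EpCAM-negative depleted libraries, apart there. It was higher in control at 2.87 ± 0.23 (adjusted p = 6.48e-11) and higher than in culture at 6.34 ± 0.63 (adjusted p = 6.46e-09). It was the member among 35 measured immediate-early genes, where 0.561% of features at 5 CPM were depleted-up. Of the 35, 24 had a ratio of at least 1.5 in depleted tumours, as had 10.4% of features at 5 CPM.

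Asns, which makes asparagine and is a target of the amino acid response, had 6.35 to 16.8 CPM (median 11.6) among EpCAM-positive and 1.53 to 14.7 CPM (median 5.04) among EpCAM-negative control libraries. Depleted tumours gave 39.9 to 78.02 CPM (median 49.7) among EpCAM-positive and 95.02 to 135 CPM (median 123) among EpCAM-negative depleted libraries, apart there. The steps between treatments and to culture (872 and 833 CPM) were wider than those between fractions, at -3.15 ± 0.23 (adjusted p = 1.08e-11) for control minus depleted and -4.85 ± 0.25 (adjusted p = 5.50e-14) for tumour minus culture. Eif4ebp1, a repressor of translation initiation that the same response induces, had 53.8 ± 16.05 CPM among EpCAM-positive and 33.1 ± 8.45 CPM among EpCAM-negative control cells, and 85.6 ± 12.6 CPM and 152 ± 8.67 CPM in those of depleted tumours, and also differed from culture, by -2.70. Ppm1l, a phosphatase of stress kinase signalling, had 6.78 ± 2.303 CPM among EpCAM-positive and 3.01 ± 1.01 CPM among EpCAM-negative control cells, and 3.98 ± 1.36 CPM and 22.7 ± 3.17 CPM in those of depleted tumours. Ramp3, a partner of the calcitonin receptor family, had 0.768 ± 0.635 CPM among EpCAM-positive and 0.184 ± 0.2104 CPM among EpCAM-negative control cells, and 0.412 ± 0.351 CPM and 5.59 ± 2.23 CPM in those of depleted tumours and 37.1 and 38.7 CPM in culture. Its control values of under 2 CPM rest on few reads. Cck, a peptide hormone, had 7.16 to 68.1 CPM (median 27.1) in EpCAM-negative depleted cells. Its control ratio rested on EpCAM-positive control library 1, at 11.2 CPM.

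**Figure D4:**
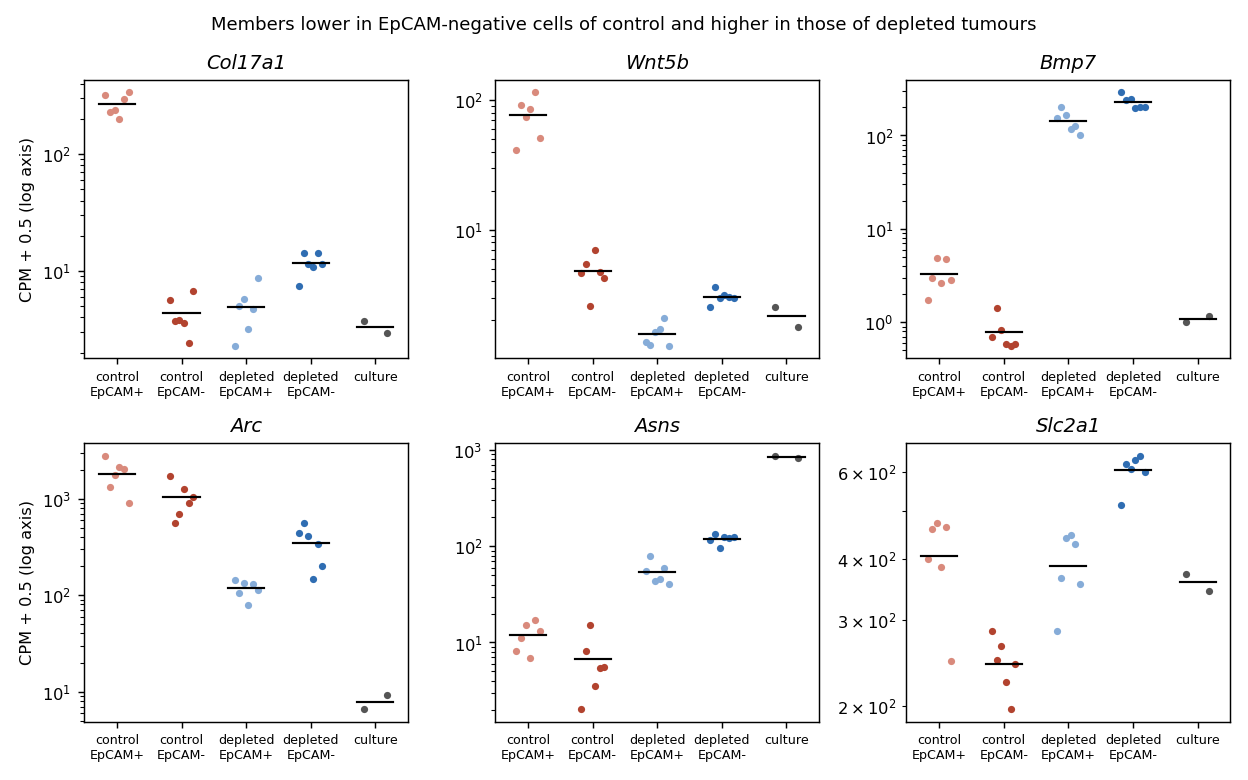
Each point is a library, with CPM + 0.5 on a logarithmic y axis and the 5 groups on the x axis, and bars mark group means of 6 libraries (2 in culture). In each panel EpCAM-negative cells are lower than EpCAM-positive ones in control tumours and higher in depleted tumours, by mean. Col17a1 and Wnt5b are high in EpCAM-positive control cells, Bmp7 in both depleted groups and Asns in culture.

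Over all members, the control-up genes divided in the comparison of control with depleted tumours. Of 79, edgeR's test called 44 higher in control, against 27.5% of all tested features and 33.4% of those at 5 CPM, and 21 lower, against 25.5% and 30.2%. The remaining 14 did not pass, and the median log2 fold change was 0.88, beside 0.0074 for features at 5 CPM. Of the 60 depleted-up genes 23 were higher and 21 lower, with a median of 0.23. The share of control-up genes that were higher, 44 of 79, stood above both background shares, while those of the depleted-up genes lay close to or somewhat above them. The difference from the background shares was not tested.

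Against culture, 41 control-up genes were higher in tumours and 29 lower, where 24.2% and 22.8% of all tested features and 31.4% and 29.8% of those at 5 CPM were called. Of the depleted-up genes 30 were higher and 10 lower. The median log2 fold changes were 0.89 and 0.75, beside 0.038 for features at 5 CPM. The culture mean was above all 4 tumour means for 27 control-up and 9 depleted-up genes and below them for 32 and 22, where 40.9% and 26.2% of features at 5 CPM were above and below. Both comparisons use the same 24 tumour libraries, so genes called in both are given as a description. The share of all features called in both was not computed, so nothing is read from the size of these counts. In the control-up direction 35 genes were higher in control and higher than in culture, and 17 were lower in both, which include 10 of the 11 mitotic members. Among depleted-up genes 17 were higher in both and 7 lower in both. Nwd1 had no count in culture. With 3 counts over both culture libraries as a floor, it was at least 85.2-fold higher in tumours, and it passed the test with an adjusted p of 3.63e-04.

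**Figure D5:**
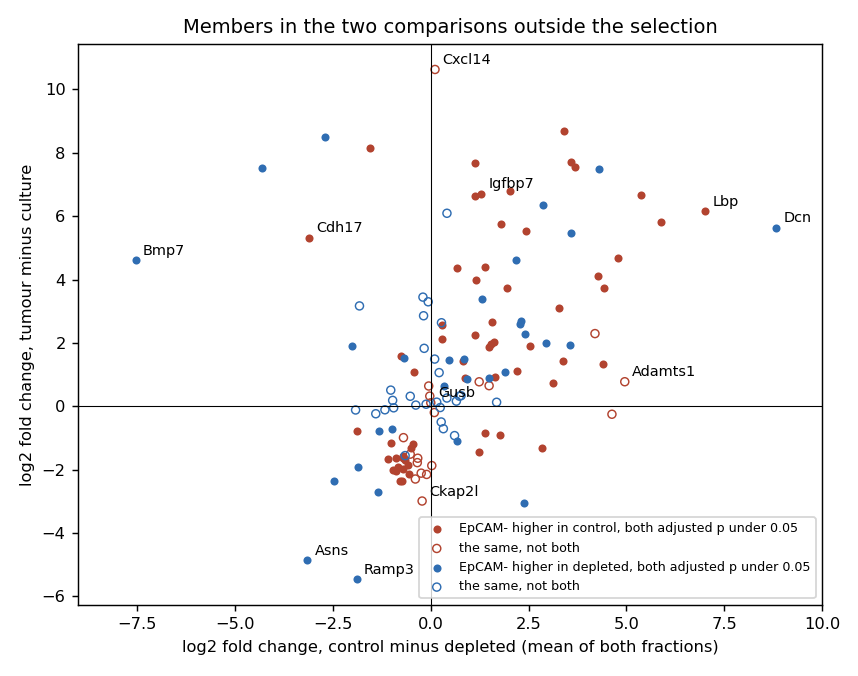
Each point is 1 of the 139 genes, with the log2 fold change of control minus depleted tumours, averaged over both fractions, on the x axis and that of tumour minus culture on the y axis. Filled points passed an adjusted p of 0.05 in both comparisons and open ones did not. Red control-up genes gather in the upper right and in a cluster at the lower left that holds the mitotic genes, while blue depleted-up genes are scattered.

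A pair of limits touches the membership. The counts were scaled by library totals, and with TMM factors, which were 0.877 to 0.947 in EpCAM-negative and 0.963 to 1.07 in EpCAM-positive control libraries, the median log2 ratio over all features at 5 CPM moved up by 0.137 in control tumours and moved by -0.0329 in depleted ones. The rule then found 100 control-up and 42 depleted-up genes, so that control-up genes made up 70.4% of the set in place of 56.8%. All 79 control-up genes met it again and 18 depleted-up genes did not, among them Dcn, Bnip3, Inhba, Nupr1 and Boc. The second limit is the threshold. Nek2, with a depleted ratio of 0.6699, and Hspb8, with a control ratio of 0.669, were just inside. Just outside the control-up rule were Col4a6, with a control ratio of 1.496 and a mean of 572 CPM in EpCAM-negative control cells, and Nceh1, with 1.491. Just outside the depleted-up rule were Zfp568, with a control ratio of 0.674, and Serpinb6b, with 0.675.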

How the data were processed

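RNA-seq was analysed from 26 libraries, 6 in each of 4 tumour groups and 2 of cultured E-A14 cells, grouped by their titles. The authors deposited raw read counts per gene, for which the submitters' processing notes name STAR and mm9. Counting program, annotation and strand setting: not given in the sources used here. Hence overlapping genes on opposite strands and near-identical copies (Pilrb1 and Pilrb2, Ly6c1, Ctla2a, Orm1) may share reads. A second deposited table of normalized values was not used. The cDNA was amplified from small amounts of RNA without molecular identifiers, so counting intervals cover counting error only. Of the Ensembl identifiers, 47224 were matched to symbols.

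Members were chosen on CPM from library totals, with 0.5 added to group means. The members and the 36 gene lists and 14 cell type lists were chosen with earlier results of these data known. The 2 tests outside the ratios of the rule used edgeR 4.0.16 (R 4.3.3): TMM factors, its expression filter (16637 features), a quasi-likelihood fit with 1 coefficient per group, and Benjamini-Hochberg adjustment over all features at 0.05. The fit was tested on simulated data with 200 genes changed 2-fold for each comparison. It recovered 84% of them between treatments and 58.5% against culture, so a gene that did not pass against culture may still differ. Of all calls, 6.67% and 4.10% were false. The simulated libraries were independent, so the test did not cover fractions that share a tumour. Far fewer genes were changed in the simulation than were called in the data, so these rates may not hold for the data. All 139 members passed the filter, 50 are in a list and 89 in none. Library totals were 17559520 to 38740143 counts.

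Genes named are, in each direction, the 12 with the largest weaker change, the 4 with the highest means, up to 3 of each list with 3 or more members, the 4 largest and 4 smallest differences in each test among those called with 10 CPM in a group, and those nearest the threshold. Gusb, Cck, Hk2, Cdon, Boc, Sema3c, Sema3d, Sema5a, Enpp1, Bmp1, Nupr1, Cybb, H2-DMa and the cell-cycle genes outside the mitotic list were picked after their values were seen. Some genes that met the rule are left unnamed. Alternatives were DESeq2 1.42.0, RLE size factors, no filter, limma-voom 3.58.1 with the replicate number as a block, other settings of the membership rule and leaving out each library.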

Additional observations from a re-analysis of the deposited data

Results flagged for a closer look

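Of 248 groups of 6 libraries, from 62 named genes in 4 tumour groups, 27 had a library whose gap to the nearest other was above Dixon's 95% limit, where chance flags about 1 in 20. In these one library lay far from the other 5.

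Among control-up genes, EpCAM-positive control library 1 stood high for Itga8 (111 CPM, the others 72.5 to 81.4) and Adamts1 (1.15e+03, the others 456 to 712), library 4 of that group for Lbp (1.36e+03, the others 726 to 927) and library 5 for Cdh17 (5.7, the others 0.449 to 2.23). EpCAM-negative control library 5 had 24.5 CPM of St8sia2 against 0.0547 to 5.14. EpCAM-positive depleted library 6 had 44.7 CPM of Nek2 against 28.2 to 33.1. In EpCAM-negative depleted cells, library 2 stood high for Podn (0.222, the others at most 0.0502) and Adamts1 (32.5, the others 13.7 to 18.1), library 1 for Emilin1 (1.53, the others at most 0.266), and library 4 for Fndc1 (3.36, the others 0.622 to 1.26), while library 5 had 0 of 9230104L09Rik (the others 0.601 to 0.888).

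Among depleted-up genes, EpCAM-positive control library 3 stood high for Trim29 (90.2 CPM, the others 53.5 to 65.4) and Hspb8 (24.1, the others 4.57 to 7.76), library 1 for Nppb (15.9, the others 0.776 to 3.35) and library 6 for Inpp4b (24.7, the others 8.7 to 11.2), while library 6 was low for Dcn (832, the others 1.82e+03 to 2.37e+03). EpCAM-negative control library 1 stood high for Trim29 (35, the others 11.4 to 19.8), Angptl4 (12.1, the others 2.04 to 4.07) and Nppb (6.92, the others 0.719 to 2.11) and low for Hspb8 (2.05, the others 5.69 to 7.85). Library 2 of that group stood high for Bmp7 (0.91, the others 0.0616 to 0.336) and had all the reads of Uox there (0.208). EpCAM-positive depleted library 3 stood high for Ppm1l (6.6, the others 2.76 to 3.85), library 2 for Dcn (6.09, the others at most 1.71) and library 1 for Dram1 (7.42, the others 2.62 to 4.27). EpCAM-negative depleted library 1 was low for Ltbp1 (559, the others 697 to 742) and Slc2a1 (515, the others 601 to 648).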

How the results depend on the processing

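Thresholds of 2 and 0.5 left 15 control-up and 7 depleted-up genes. Other settings of the rule gave 71 to 100 control-up and 42 to 77 depleted-up genes, and leaving out 1 tumour library gave 72 to 86 and 54 to 73. The lowest number of depleted-up genes among these, 42, came with TMM factors. The labels do not say whether same-numbered libraries came from the same tumour, and no value above pairs them. Deviations of same-numbered libraries correlated by 0.0497 to 0.172 in control tumours, where all 6 correlated best with their own number, and by 0.0175 to 0.0469 in depleted tumours, where 3 of 6 did, over 16637 genes. With medians of same-numbered ratios (replicate block) the rule gave 77 and 67 genes, of which 68 and 50 were members. There the control ratio of St8sia2 turned to -0.0073 and the depleted ratio of Lum to 0.055 on the log2 scale, and with 1 library left out the control ratio of St8sia2 ran from -0.43, without EpCAM-negative control library 5, to 1.07.

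With limma-voom and the number as a replicate block, 43 control-up genes were higher and 23 lower in control, and 20 and 21 depleted-up genes, and 35 and 30, and 24 and 12, were higher and lower than culture. DESeq2, RLE factors and no filter kept each count within 1.5 times. Depleted-up genes lower than culture numbered 6 to 11 when 1 library was left out, the lowest without culture library 2, and all features higher than culture 2669 to 4132, the lowest without culture library 1. A test of a named gene was lost in 24 cases, 21 of them against culture.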
